A study of Mus musculus with 21 samples.

Results

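The comparison described here is the difference between 2 responses to food deprivation, that of AGRP neurons and that of POMC neurons of the hypothalamic arcuate nucleus. For each gene the change between food-deprived (FD) and fed mice in POMC neurons was subtracted from the same change in AGRP neurons, and the result, on a log2 scale, is called the interaction. A positive interaction means that the gene moved further upward, or less far downward, in AGRP neurons. All 21 of the 21 RNA-Seq libraries of the series entered 1 model with 4 groups, and 16513 of the 35266 genes in the count table were expressed highly enough to be tested, at more than 1 CPM (reads on a gene scaled to the library total) in at least 3 libraries.

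The groups were AGRP neurons from fed mice (n = 5), AGRP neurons from FD mice (n = 6), POMC neurons from fed mice (n = 5) and POMC neurons from FD mice (n = 5). All animals were male C57BL/6J mice of postnatal day 46 to 56. FD mice had water but no food for 24 hr, and fed mice ate ad libitum. AGRP neurons came from mice in which an Npy transgene drives the fluorescent protein hrGFP and POMC neurons from mice with a Pomc-GFP transgene, so cell type and mouse line cannot be told apart. Each library was a hand-sorted pool of 44 to 214 fluorescent neurons from 1 mouse, with the RNA amplified before sequencing.

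AGRP neurons release the agouti-related peptide, neuropeptide Y and GABA, become more active when energy is short, and drive feeding. POMC neurons cleave pro-opiomelanocortin into melanocortin peptides, which act on melanocortin receptors to reduce feeding. Both cell types carry the leptin receptor and respond to circulating signals such as leptin, insulin and glucocorticoids. An interaction test asks of each gene whether these opposed neurons answered the same fast in the same way.

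The libraries held 9822298 to 37663979 counts on genes (median 19189780), and this range overlapped among the groups. Agrp and Npy together made up 12064 to 68921 TPM (a level scaled to transcript length) in AGRP libraries and 5.45 to 226 TPM in POMC libraries. Pomc and Cartpt together stood at 8809 to 37160 TPM in POMC libraries and 114 to 227 TPM in AGRP libraries. The summed TPM of 4 astrocyte markers was at most 9.79, of 4 microglia markers at most 11.5 and of 4 endothelial markers at most 5.78 in any library, with C1qa at 0 in every one. The 4 oligodendrocyte markers summed to 16.0 to 47.8 TPM, most of it Mbp, and the 4 tanycyte markers to 14.3 to 102 TPM, most of it Vim. Of the 20 markers of these 5 cell types 13 were expressed highly enough to be tested, and 1 of them had an interaction at a Benjamini-Hochberg adjusted p (q) under 0.05, the intermediate filament gene Vim at 1.89 (q = 0.0142). A list of 6 markers of other arcuate neurons summed to 453 to 2410 TPM in AGRP libraries, most of it Sst, the somatostatin precursor, and to 1.58 to 231 TPM in POMC libraries, and none of the 3 tested was called (Sst, q = 0.2396). In such pools a change in RNA per cell and a change in the share of cells that express a gene cannot be told apart.

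Food deprivation changed 1108 genes differently in the 2 cell types at q under 0.05 by edgeR's quasi-likelihood test, 6.71% of those tested. The interaction was positive for 674 (4.08%) and negative for 434 (2.63%). Of the 1108, 757 (4.58% of those tested) also met the size criteria, with an interaction beyond 1 on the log2 scale in either direction and more than 20 CPM on average in some group. They comprised 489 positive (2.96%) and 268 negative (1.62%) interactions. Among the 7017 genes that averaged more than 20 CPM in a condition of each cell type, 813 (11.6%) had an interaction, 527 positive (7.51%) and 286 negative (4.08%).

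Most interaction genes were ones that AGRP neurons changed and POMC neurons were not shown to change. The AGRP change alone passed q under 0.05 for 806 of the 1108 (72.7%), the POMC change alone for 24, both for 23 and neither for 255. Over all tested genes, 1700 changed in AGRP neurons (10.3%; 969 rose, 5.87%, and 731 fell, 4.43%). In POMC neurons 62 genes changed (0.375%), of which 30 rose (0.182%) and 32 fell (0.194%). Of the 674 positive interactions, 519 belonged to genes that rose in AGRP neurons, and of the 434 negative ones, 309 belonged to genes that fell there. The AGRP change is a term of the interaction, so such agreement in sign is partly by construction. The absolute AGRP change exceeded the absolute POMC change for 847 interaction genes (76.4%). Across the 7017 genes expressed in both cell types the standard deviation of the log2 change was 0.608 in AGRP and 0.413 in POMC neurons, while the median standard error of a gene's change was 0.245 and 0.256. Across these genes the 2 changes had a Pearson correlation of -0.141 (Spearman -0.134), given as a description over genes, which are not independent replicates.

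**Figure D1:**
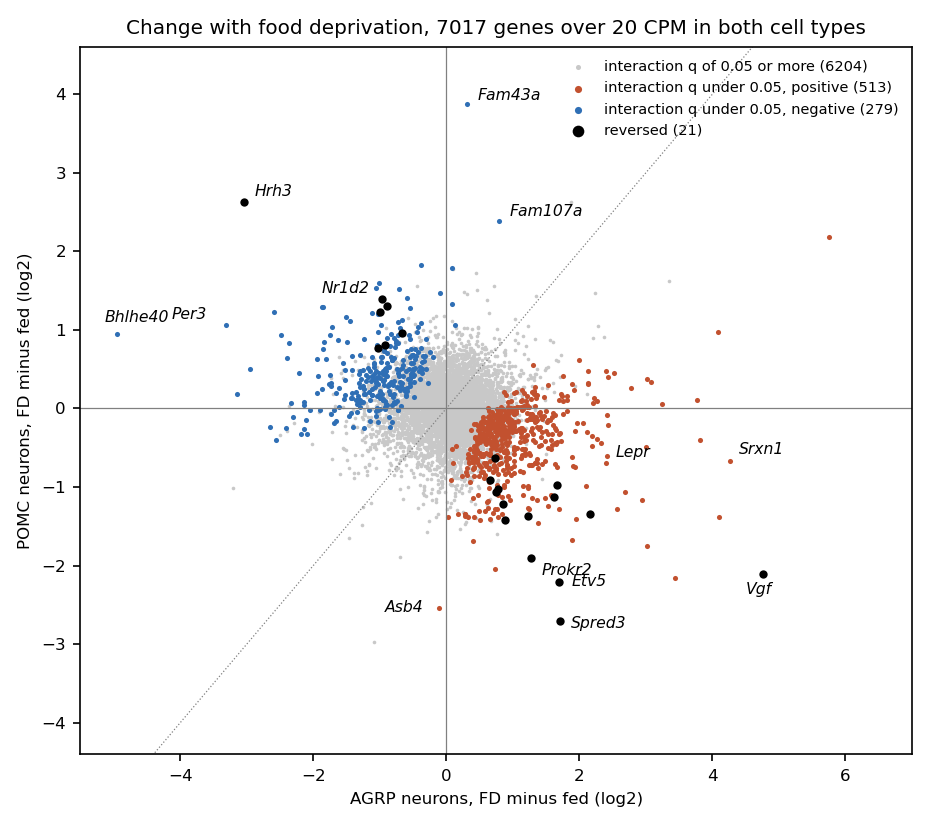
Change with food deprivation (FD minus fed, log2) in AGRP neurons on the x axis against the change in POMC neurons on the y axis, 1 point for each of the 7017 genes with a mean over 20 CPM in both cell types. Colored points mark interaction genes and the larger black points the reversed ones, which lie in the upper left and lower right. Labels name some reversed genes and some that are not reversed, such as Lepr, Asb4 and Fam107a. The reversed gene Arap2, under 20 CPM in POMC neurons, is not shown. The cloud is wider along the AGRP axis (standard deviation 0.608) than along the POMC axis (0.413).

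These counts carry 2 limits. Spike-in RNA was added in 3 ways, and POMC fed libraries were of the 1 μl set (3) or the set scaled to cell number (2) while POMC FD libraries were of the 1 μl set (3) or the 10 μl set (2). With the set as a block there were 1025 interaction genes, and with only the 1 μl POMC libraries, which leaves 3 against 3 and drops the 2 fed POMC libraries of postnatal day 51, there were 622. When libraries were scaled per cell by the spike-in counts instead of by composition there were 119, 100 positive and 19 negative. That scaling takes all spike-in volumes to be of 1 stock. The study's methods give the same dilution for the 1 μl volume and the volume scaled to cell number, and do not mention a 10 μl volume. Spike-in reads per gene read and μl, multiplied by the cells sorted, were 1.19 to 1.76 in the 10 μl set, 0.388 to 0.649 in the 1 μl set and 0.110 to 0.314 in the set scaled to cells, so a scaled value is not a level per cell where sets are mixed. It raised the median interaction of all genes to 1.04 and the median standard error of an interaction from 0.669 to 1.26. By limma-voom the split was 574 positive to 607 negative, a share of 48.6% positive in place of 60.8%.

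Food deprivation moved 22 genes in opposite directions in the 2 cell types, with the AGRP change, the POMC change and the interaction each at q under 0.05 (0.133% of genes tested). AGRP neurons raised 15 of them while POMC neurons lowered them, and 7 went the other way. Over all tested genes 30 were called in both contrasts, so 22 of those 30 were opposite in sign. Among the reversed genes were receptors for histamine and prokineticin, the secreted proteins Vgf and Chga, and feedback regulators of the ERK kinase pathway.

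Hrh3 (ENSMUSG00000039059, chr2:180099464-180104488, mm10) encodes the histamine H3 receptor, a Gi/o-coupled receptor that restrains transmitter release and cell firing. In fed AGRP neurons it stood at 114, 116, 120, 122 and 137 CPM, and in the 6 FD AGRP libraries at 6.44 to 21.6 CPM (median 15.4). In POMC neurons the fed libraries read 8.11, 8.78, 9.66, 10.9 and 12.4 CPM and the FD libraries 22.8, 53.2, 55.5, 64.6 and 112 CPM. The fed and FD values did not overlap in either cell type, and every AGRP library was above every POMC library in fed mice and below every one in FD mice. The log2 change was -3.04 ± 0.30 (SE) in AGRP and 2.63 ± 0.32 in POMC neurons, an interaction of -5.67 ± 0.44 (q = 1.03e-09). An antisense-strand transcript, Gm17180, shares 11.1% of its exon length, and counting did not use strand.

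Prokr2 (chr2:132337732-132385447) encodes the Gq-coupled prokineticin receptor 2 and moved the opposite way to Hrh3. Fed AGRP libraries held 24.8, 26.6, 33.0, 33.1 and 61.9 CPM and FD ones 46.5 to 116 CPM (median 93.3), with 1 fed library reaching into the FD range. Fed POMC libraries held 21.6, 40.1, 57.2, 62.2 and 64.2 CPM and FD ones 6.60, 11.7, 12.5, 16.9 and 17.8 CPM, with no overlap. Its changes of 1.28 ± 0.31 in AGRP and -1.90 ± 0.33 in POMC neurons gave an interaction of 3.18 ± 0.45 (q = 3.30e-05).

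Of all genes tested, Vgf (chr5:137026391-137033351) had the smallest interaction q. It encodes a precursor of the granin family, proteins that pack dense-core vesicles and are cut into secreted peptides. Fed AGRP libraries held 30.6, 33.6, 40.1, 82.6 and 93.7 CPM and FD ones 914 to 2222 CPM (median 1580). Fed POMC libraries held 319, 388, 544, 733 and 830 CPM and FD ones 82.3, 120, 129, 131 and 193 CPM. Neither pair of groups overlapped, and the cell type with more Vgf RNA was POMC in fed and AGRP in FD mice. The changes were 4.76 ± 0.34 in AGRP and -2.10 ± 0.30 in POMC neurons, an interaction of 6.86 ± 0.45 (q = 2.63e-11).

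Chga (chr12:102554968-102565027), the founding granin chromogranin A, followed the same pattern at a smaller size. It read 42.6, 51.1, 56.0, 61.3 and 86.7 CPM in fed and 84.1 to 134 CPM (median 108) in FD AGRP libraries, which overlapped in 1 fed library. In POMC neurons it read 80.2, 88.4, 117, 128 and 153 CPM when fed and 39.3, 41.5, 50.1, 54.6 and 58.7 CPM after food deprivation, without overlap. Its interaction was 2.07 ± 0.30 (q = 4.77e-05).

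Spred3, Spred2 and Etv5 belong to 1 signalling pathway. SPRED proteins restrain the activation of ERK by growth factor receptors, and Etv5 is an ETS transcription factor whose RNA follows ERK activity in many cells. Spred3 (chr7:29158828-29168647) held 32.0, 38.7, 46.5, 54.6 and 60.3 CPM in fed and 123 to 180 CPM (median 156) in FD AGRP libraries. In POMC neurons it held 46.7, 66.0, 72.5, 77.4 and 97.3 CPM when fed and 5.58, 7.75, 8.87, 16.0 and 17.0 CPM after food deprivation. The groups were apart in both cell types, with changes of 1.71 ± 0.26 and -2.71 ± 0.28 and an interaction of 4.42 ± 0.38 (q = 7.82e-09).

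Spred2 (chr11:19924374-20024026) went from 60.0, 75.1, 88.0, 100 and 138 CPM to 166 to 282 CPM (median 196) in AGRP neurons. In POMC neurons it went from 57.2, 75.4, 89.8, 124 and 144 CPM to 22.0, 27.7, 36.4, 43.9 and 58.8 CPM, the highest FD library just above the lowest fed one. The interaction was 2.59 ± 0.37 (q = 3.96e-05). Etv5 (chr16:22381308-22439719) rose from a mean of 21.8 ± 12.5 (SD, n = 5) to 70.7 ± 19.7 CPM (n = 6) in AGRP neurons and fell from 41.0 ± 6.90 to 8.89 ± 6.68 CPM (n = 5 each) in POMC neurons, an interaction of 3.91 ± 0.64 (q = 1.77e-04).

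The other reversed genes named by the rule had varied roles. Nr1d2 (chr14:18204053-18239127), which encodes the clock repressor REV-ERB beta, fell in AGRP neurons from 135, 143, 158, 159 and 182 CPM to 35.0 to 127 CPM (median 83.1). It rose in POMC neurons from 37.2, 43.6, 51.5, 67.2 and 76.3 CPM to 108, 126, 131, 151 and 205 CPM, so fed and FD libraries were apart in both. The interaction was -2.35 ± 0.37 (q = 1.10e-04). Dtna, a dystrophin-associated scaffold protein, had changes of -0.92 ± 0.14 in AGRP and 0.81 ± 0.14 in POMC neurons. Arhgap20, a GTPase activating protein, changed by -0.66 ± 0.17 and 0.96 ± 0.18, and Rps6ka5, a kinase downstream of ERK and p38, by -0.89 ± 0.26 and 1.31 ± 0.28.

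The remaining upward group held a neuronal tubulin, a release factor, a lipid enzyme and a transcription factor. Tubb3 (chr8:123411423-123422015), the neuron-specific beta-tubulin, averaged 104 ± 23.5 CPM in fed and 173 ± 44.0 CPM in FD AGRP libraries, and 239 ± 56.4 and 115 ± 16.2 CPM in fed and FD POMC libraries. Unc13a, which primes synaptic vesicles, had an interaction of 1.80 ± 0.29 (q = 1.71e-04). For Elovl5, which elongates polyunsaturated fatty acids, it was 1.57 ± 0.26 (q = 1.87e-04). The homeobox gene Zfhx2 had an interaction of 2.74 ± 0.34 (q = 3.64e-06), but its exons share 17.9% of their length with the antisense gene Zfhx2os.

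Beyond the 15 genes that the naming rule covers, 7 more were reversed and were named with their values seen. Slc45a1, Ddah1, Arap2, Cd24a and Tuba1a rose in AGRP and fell in POMC neurons, with interactions of 2.30, 2.63, 5.96, 3.50 and 1.37. Ccdc85a and Plxnc1 fell in AGRP and rose in POMC neurons, with interactions of -2.22 and -1.80.

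The reversed genes differed in how firmly they held. Of 33 other settings and left-out libraries, Hrh3, Spred3, Vgf and Spred2 stayed reversed in 32, and Dtna, Prokr2, Chga, Arhgap20, Tubb3 and Nr1d2 in 31. Tuba1a stayed so in 16, the fewest. None was reversed under per-cell scaling, under which, with unlike spike-in sets in fed and FD mice, the median change in POMC neurons was -1.11 over all genes and Dtna, Arhgap20 and Plxnc1 had estimates of the same sign in both cell types. In the 1 μl POMC libraries alone, 9 genes were reversed, and 5 of the 22 were among them.

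**Figure D2:**
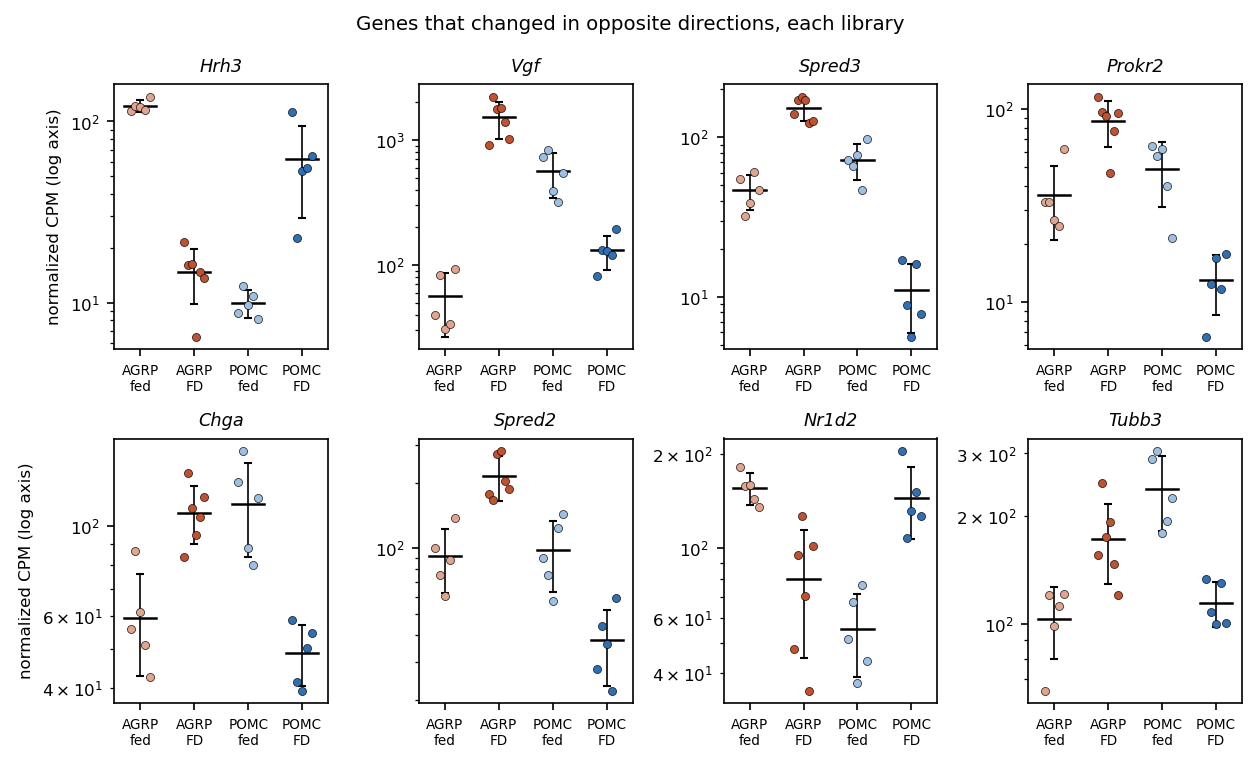
Normalized CPM (log axis) of 8 reversed genes in each library, by group, with each point a library and each bar a group mean. Hrh3 and Nr1d2 fall in AGRP and rise in POMC neurons, whereas Vgf, Spred3, Prokr2, Chga, Spred2 and Tubb3 do the opposite.

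The lowest interactions among genes expressed in both cell types belonged, apart from Fam43a, to genes that fell in AGRP neurons, several of them parts of the circadian clock. Bhlhe40 (chr6:108660628-108666925), a transcriptional repressor of clock genes, read 205, 233, 272, 279 and 328 CPM in fed AGRP libraries and 0.354 to 18.6 CPM (median 8.07) in FD ones. POMC libraries read 26.3, 27.6, 32.1, 40.0 and 44.7 CPM when fed and 40.4, 48.8, 67.2, 68.5 and 104 CPM after food deprivation, an overlapping range. The AGRP change was -4.95 ± 0.54, the POMC change 0.95 ± 0.50 (q = 0.46) and the interaction -5.89 ± 0.73 (q = 3.66e-06). Its relative Bhlhe41 had an interaction of -3.45 ± 0.64 (q = 8.76e-04), and 19.0% of its exon length is shared with the antisense gene Gm43909.

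Per3, a period gene, averaged 79.0 ± 34.7 CPM in fed and 7.97 ± 5.36 CPM in FD AGRP libraries, against 29.97 ± 5.64 and 62.3 ± 18.6 CPM in POMC libraries. Its POMC groups did not overlap although the change missed the threshold (1.06 ± 0.34, q = 0.163). Hlf, a clock output factor of the PAR bZIP family, averaged 140 ± 23.2 and 15.8 ± 12.9 CPM in fed and FD AGRP libraries and 119 ± 31.0 and 135 ± 42.4 CPM in POMC libraries. Of 20 clock genes tested, 9 (45.0%) had an interaction, 7 negative and 2 positive. In AGRP neurons 7 fell and 3 rose, and in POMC neurons 1 rose, Nr1d2. Tef, another PAR bZIP factor, had an interaction of -2.68 ± 0.41 (q = 1.06e-04). The list's median interaction was -0.48 against 0.01 over all genes tested. All mice were taken in the middle of the light phase, so these are values at 1 time of day.

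The other 3 genes with the lowest interactions were Lmo3, a LIM-domain transcriptional cofactor, Fat3, a protocadherin, and Fam43a. Lmo3 averaged 71.9 ± 12.2 and 11.9 ± 6.12 CPM in fed and FD AGRP libraries and 38.6 ± 16.3 and 90.4 ± 22.9 CPM in POMC libraries, an interaction of -3.82 ± 0.45 (q = 1.73e-06). Fat3 had an interaction of -3.43 ± 0.41 (q = 2.04e-06). Fam43a owed its interaction of -3.56 ± 0.65 (q = 6.52e-04) to POMC neurons, in which it rose from 3.31 ± 2.00 to 48.6 ± 18.1 CPM, while it averaged 17.9 ± 10.4 and 22.3 ± 9.70 CPM in AGRP neurons.

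At the other end of the range, the genes with the highest interactions rose in AGRP neurons. Spry4, which with other Sprouty proteins limits ERK signalling, averaged 6.86 ± 8.87 and 74.6 ± 38.3 CPM in fed and FD AGRP libraries and 21.8 ± 9.55 and 4.91 ± 2.19 CPM in POMC libraries. Its interaction was 5.60 ± 0.89 (q = 1.36e-04). Nmur2, a receptor for neuromedin U and S, averaged 1.28 ± 1.05 and 22.2 ± 19.8 CPM in AGRP and 44.2 ± 19.7 and 17.0 ± 9.34 CPM in POMC libraries. For Hcrtr2, the orexin receptor 2, the means were 2.68 ± 3.34 and 21.7 ± 10.7 CPM in AGRP and 32.7 ± 8.33 and 9.74 ± 4.35 CPM in POMC libraries. In fed mice every POMC library held more of either receptor than any AGRP library, in FD mice the ranges overlapped, and the interactions were 5.48 ± 0.84 and 4.77 ± 0.85. In fed AGRP neurons replicate 5 stood above the other libraries for Spry4 (22.4 CPM) and Hcrtr2 (8.35 CPM), and in FD AGRP neurons replicate 2 did for Nmur2 (60.7 CPM). Ostf1 had an interaction of 4.11 ± 0.70 (q = 2.84e-04).

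Among genes called in AGRP neurons alone, the 6 with the smallest interaction q all rose there. Lepr (chr4:101717403-101815352), the leptin receptor, read 56.2, 77.5, 83.3, 103 and 134 CPM in fed and 327 to 649 CPM (median 468) in FD AGRP libraries. Fed POMC libraries read 53.3, 64.7, 66.1, 72.3 and 82.8 CPM and FD ones 30.03, 34.6, 43.6, 49.8 and 51.6 CPM. The POMC groups did not overlap, although the change of -0.69 ± 0.21 did not pass the test (q = 0.126), and the interaction was 3.09 ± 0.29 (q = 3.18e-08). Ntng1, a membrane-anchored netrin that guides axons, averaged 8.27 ± 3.10 and 112 ± 14.4 CPM in AGRP but 51.7 ± 10.1 and 55.9 ± 14.0 CPM in POMC libraries. Sorcs1, a sorting receptor of the VPS10 family, had an interaction of 4.22 ± 0.40 (q = 3.03e-08). Gm27031, an uncharacterized locus on chr13 that lies beside the synaptic vesicle gene Sv2c, had one of 2.77 ± 0.25 (q = 1.81e-08), and that of Sv2c was 3.03 ± 0.31.

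Genes called in POMC neurons alone were few, 24 in all, and 13 of their interactions were positive and 11 negative. Asb4 (chr6:5383385-5433022), a substrate adaptor of ubiquitin ligases expressed in the arcuate nucleus, read 769, 899, 1118, 1154 and 1667 CPM in fed and 127, 194, 196, 218 and 230 CPM in FD POMC libraries. AGRP libraries read 318, 372, 384, 390 and 401 CPM when fed and 198 to 423 CPM (median 360) after food deprivation. Only the POMC groups were apart, with changes of -2.54 ± 0.20 in POMC and -0.11 ± 0.18 in AGRP neurons and an interaction of 2.42 ± 0.27 (q = 8.60e-07).

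Of this group, 2 members act in leptin and insulin signalling. Stat3 (chr11:100885097-100939540), the transcription factor that the leptin receptor activates, read 211, 244, 284, 313 and 375 CPM in fed and 77.2, 101, 114, 119 and 139 CPM in FD POMC libraries. AGRP libraries read 251, 271, 349, 351 and 421 CPM when fed and 270 to 622 CPM (median 445) after food deprivation, and the interaction was 1.80 ± 0.29 (q = 1.58e-04). Irs4 (chrX:141710997-141725263), an insulin receptor substrate, had among the smallest errors of the named genes. It read 1732, 1895, 1914, 1937 and 1942 CPM in fed and 1044, 1089, 1187, 1260 and 1263 CPM in FD POMC libraries, against 2460 to 2788 and 2511 to 3285 CPM in AGRP libraries. A small interaction of 0.79 ± 0.14 was therefore resolved (q = 3.62e-04).

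Sorcs3 (chr19:48206024-48805505), a relative of Sorcs1, rose in POMC neurons from 11.7, 12.4, 14.1, 15.8 and 17.98 CPM to 32.4, 35.2, 38.5, 45.3 and 48.4 CPM. It stayed far below its level in AGRP neurons, 187 to 291 CPM when fed and 203 to 263 CPM after food deprivation, and the interaction was -1.57 ± 0.23 (q = 7.50e-05). Tspan13 fell in POMC neurons, with an interaction of 1.54 ± 0.25 (q = 1.59e-04). Slc9a2, a sodium-proton exchanger, was at or under 3 counts in every fed POMC library and at 0.338 to 6.87 CPM in FD ones. The mean of the FD libraries was 19.2-fold the mean of a floor of 3 counts per library.

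Fam107a, a stress-induced actin-binding protein, was the only interaction gene called in both cell types in the same direction. It read 146, 157, 212, 250 and 291 CPM in fed and 295 to 481 CPM (median 356) in FD AGRP libraries. In POMC neurons it read 42.0, 47.6, 64.6, 67.9 and 79.8 CPM when fed and 286, 315, 324, 329 and 331 CPM after food deprivation. It rose by 0.79 ± 0.18 in AGRP and 2.39 ± 0.20 in POMC neurons, and the ranges of the 2 cell types, apart in fed mice, overlapped in FD mice. The interaction was -1.60 ± 0.26 (q = 1.76e-04).

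**Figure D3:**
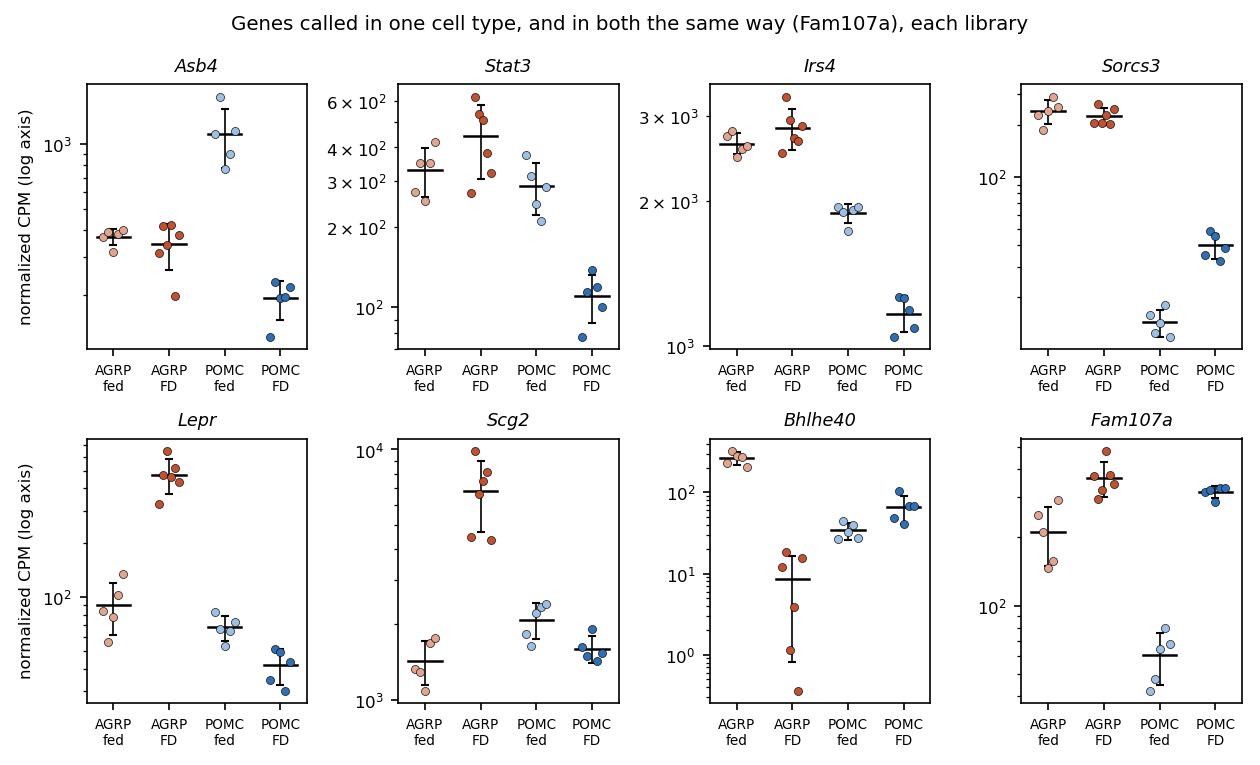
Normalized CPM (log axis) of 8 genes in each library, by group, with each point a library and each bar a group mean. Asb4, Stat3, Irs4 and Sorcs3 change in POMC neurons only by the test, Lepr, Scg2 and Bhlhe40 in AGRP neurons only, and Fam107a rises in both, to 295 to 481 CPM in AGRP and 286 to 331 CPM in POMC FD libraries.

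The peptides that define the 2 cell types mostly had no called interaction on this scale. Agrp rose in AGRP neurons from 470, 721, 764, 795 and 1308 CPM to 1332 to 6376 CPM (median 3209), a change of 2.08 ± 0.39 (q = 5.31e-04). In POMC libraries, where it was at 1.52 to 9.44 CPM when fed and 4.15 to 17.0 CPM after food deprivation, its change of 1.50 ± 0.42 was not called, and the interaction was 0.58 ± 0.56 (q = 0.6254). Npy had an interaction of 0.56 ± 0.85 (q = 0.781) and Pomc one of 0.60 ± 0.55 (q = 0.611). Npy stood at 1588 to 3191 CPM in fed and 3663 to 10859 CPM in FD AGRP libraries. These did not overlap, yet its AGRP change was not called here, whereas the study reported it as upregulated. For Agrp, Npy and Pomc alike the estimate for 1 cell type comes from reads at a trace level. With standard errors of 0.55 to 0.85, a difference beyond 1 on the log2 scale could go uncalled.

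Cartpt, the CART precursor that POMC neurons release, had an interaction of 2.10 ± 0.50 (q = 0.00876) that was not stable. Fed POMC libraries read 778, 813, 1139, 4344 and 4456 CPM, the 2 high ones being both the POMC libraries of the set scaled to cell number and those of postnatal day 51, and FD ones 436, 573, 738, 804 and 1015 CPM. With only the 1 μl POMC libraries the interaction was 0.99 (q = 0.0918), with age cohort as a block 1.28 (q = 0.0572) and by limma-voom 1.81 (q = 0.358), whereas with the spike-in set as a block it was 1.60 (q = 0.0196). Spike-in set and age cannot be told apart in those 2 libraries.

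Lists of genes with shared roles were read next, each by how many of its tested members had an interaction. These shares are to be set against 6.71% of all genes tested and 11.6% of genes over 20 CPM in both cell types. Receptors came first. Of 35 Gi/o-coupled receptors, which lower cyclic AMP and dampen excitability, 9 had an interaction (25.7%), 7 negative and 2 positive. In AGRP neurons 7 of them fell and 1 rose, in POMC neurons 2 rose and none fell, and the list's median change was -0.72 in AGRP and 0.34 in POMC neurons. Besides Hrh3, Npy2r, the Y2 receptor for neuropeptide Y, averaged 539 ± 65.0 and 109 ± 47.2 CPM in fed and FD AGRP libraries and 176 ± 55.5 and 163 ± 41.6 CPM in POMC libraries (interaction -2.20 ± 0.33, q = 7.97e-05). Htr1a, a serotonin receptor, had an interaction of -4.47 ± 0.92 (q = 0.00263). Among the 1 μl POMC libraries 4 members were called, and under per-cell scaling 1, where the median relative to all genes was -1.34.

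The 32 receptors that couple to Gq/11, which raise calcium and excite, had 7 interactions (21.9%), 6 positive and 1 negative. Their median changes were 0.40 in AGRP and -0.03 in POMC neurons, and the median interaction, 0.58, turned to -0.09 relative to all genes under per-cell scaling. By limma-voom 4 of the 32 were called, all positive. In the main test Nmur2, Prokr2 and Ghsr led by q. Ghsr, the ghrelin receptor, rose from 163 ± 60.7 to 539 ± 108 CPM in AGRP neurons but was at 2.65 ± 1.91 and 0.870 ± 0.755 CPM in POMC neurons, so its interaction of 3.50 ± 0.61 rests on very low POMC counts. The Ghsr interaction was not called by limma-voom (3.49, q = 0.0689). Of 18 Gs-coupled receptors 3 had a positive interaction, Gpr64, Gpr3 and Pth2r, and the last lost its call in 21 other settings. Gpr64 averaged 10.8 ± 3.69 and 182 ± 87.9 CPM in AGRP and 10.2 ± 4.10 and 18.6 ± 16.9 CPM in POMC libraries (interaction 3.22 ± 0.67, q = 0.00302).

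Downstream of these receptors, 3 of 17 RGS genes, whose products shorten G protein signals, had an interaction. Rgs4 averaged 276 ± 102 and 874 ± 236 CPM in fed and FD AGRP libraries and 322 ± 50.7 and 239 ± 70.0 CPM in POMC libraries (2.10 ± 0.31, q = 6.69e-05), and Rgs20 had an interaction of 2.10 ± 0.55 (q = 0.0173). Rgs6 fell in AGRP neurons from 20.6 ± 5.12 to 1.22 ± 1.61 CPM and was at or under the floor in all fed POMC libraries.

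Secreted peptides and the machinery that makes them shifted upward in AGRP neurons. Of 21 neuropeptide precursors 5 had a positive interaction (23.8%) and none a negative one, whereas by limma-voom 2 were positive and 1 negative. Of the 5, Cartpt owed its interaction to a fall in POMC neurons (-1.69), and its AGRP change of 0.41 was not called (q = 0.546). Pdyn, the dynorphin precursor, rose from 8.92 ± 4.41 to 75.3 ± 38.3 CPM in AGRP neurons and stood at 194 ± 33.7 and 245 ± 52.5 CPM in POMC neurons (2.74 ± 0.44, q = 1.58e-04). Nmb, the neuromedin B precursor, had an interaction of 2.62 ± 0.61 (q = 0.00738), with 20.6% of its exon length shared with Sec11a on the same strand. Tac1, the substance P precursor, was under the floor in fed AGRP libraries and ranged from 0 to 5.63 CPM in FD ones. The FD mean, 2.18 ± 2.57 CPM, was a low level and 13.8-fold the mean floor. POMC libraries held more Tac1, 5.39 to 46.7 CPM when fed and 0.859 to 48.8 CPM after food deprivation. Its interaction was not called by limma-voom (q = 0.136) or with only the 1 μl POMC libraries (q = 0.0952).

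The granin list held 7 genes, and 4 had a positive interaction (57.1%). Its median change was 0.76 in AGRP and -0.39 in POMC neurons, and 2 members fell in POMC neurons, Vgf and Chga. Scg2 (chr1:79434668-79440120), secretogranin II, read 1080, 1285, 1320, 1677 and 1762 CPM in fed and 4346 to 9905 CPM (median 7037) in FD AGRP libraries. POMC libraries read 1634, 1833, 2225, 2337 and 2415 CPM when fed and 1426, 1492, 1535, 1621 and 1918 CPM after food deprivation. Only the AGRP groups were apart, and the interaction was 2.65 ± 0.25 (q = 3.03e-08). Of 12 peptide processing enzymes 3 had a positive interaction (25.0%). Pcsk1, the prohormone convertase 1, averaged 75.8 ± 20.05 and 245 ± 79.9 CPM in AGRP and 126 ± 21.3 and 136 ± 28.7 CPM in POMC libraries (1.58 ± 0.32, q = 0.0019). Pam, the amidating enzyme, had an interaction of 1.04 ± 0.20 (q = 0.00139) and Cpe, carboxypeptidase E, one of 1.32 ± 0.36 (q = 0.0249).

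Promoter sequence is shown for Scg2 because it holds a cyclic AMP response element (CRE) at 68 to 61 bases before the transcription start. The 250 bases before the start, chr1:79440027-79440276 on the minus strand (RefSeq, GRCm38.p6), read 5′ to 3′ with the element in capitals.
Scg2: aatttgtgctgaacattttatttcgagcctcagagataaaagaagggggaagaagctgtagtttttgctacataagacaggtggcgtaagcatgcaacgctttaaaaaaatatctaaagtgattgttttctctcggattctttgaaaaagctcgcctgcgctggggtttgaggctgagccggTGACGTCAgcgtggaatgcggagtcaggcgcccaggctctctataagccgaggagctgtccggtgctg
The CRE was searched as TGACGTCA on both strands in windows from 250 bases before to 50 bases after each start. It was present in 2.03% of the 27025 promoters in the table and in 3.43% of the 11140 found for tested genes. Among genes with a promoter, it was present for 32 of 511 with a positive interaction (6.26%), for 6 of 298 with a negative one (2.01%) and for 2 of 6 granins. A match describes the letters in the window and is not evidence of binding, and no entry was found for Vgf.

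Immediate early genes, which neurons transcribe soon after stimulation, and ERK feedback genes gave positive interactions only. Of 27 immediate early genes 9 had one (33.3%), and none fell or rose in POMC neurons by the test while 11 rose in AGRP neurons. Fos read 27.7, 74.9, 82.5, 85.6 and 119 CPM in fed and 135 to 388 CPM (median 164) in FD AGRP libraries. POMC libraries read 82.5, 86.9, 128, 140 and 152 CPM when fed and 80.7, 94.1, 102, 106 and 118 CPM after food deprivation. The Fos interaction was 1.60 ± 0.40 (q = 0.0135) and was not called with only the 1 μl POMC libraries. Fosl2 had an interaction of 5.75 ± 0.82 (q = 3.83e-05), Crem, a CRE-binding regulator, one of 3.36 ± 0.54 (q = 1.72e-04) and Egr1 one of 1.54 ± 0.31 (q = 0.00233). Of 20 ERK feedback genes and ETS factors, 6 had a positive interaction (30%), with 7 that rose and 2 that fell in AGRP neurons and 4 that fell in POMC neurons. The 4 were Spred2, Spred3, Etv5 and, named with its values seen, Rasgrp1, which fell in both cell types.

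Endoplasmic reticulum (ER) genes formed the broadest set. Of 44 genes for ER protein folding and degradation 18 had an interaction (40.9%), and of 60 genes for translocation into the ER and for vesicle coats 30 had one (50.0%), all of them positive. In AGRP neurons 21 and 35 of them rose and none fell, and in POMC neurons none was called. Median changes were 0.70 and 0.69 in AGRP against -0.15 and -0.24 in POMC neurons. Hspa5, the ER chaperone BiP, averaged 640 ± 91.3 and 2092 ± 458 CPM in fed and FD AGRP libraries and 853 ± 153 and 686 ± 136 CPM in POMC libraries, with an interaction of 2.02 ± 0.23 (q = 8.60e-07).

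Hyou1, another chaperone, had an interaction of 1.91 ± 0.22 and Calr, calreticulin, one of 1.74 ± 0.28. Stt3b, a catalytic subunit of the enzyme that adds N-glycans, averaged 55.5 ± 16.1 and 240 ± 51.0 CPM in AGRP and 86.7 ± 22.7 and 70.6 ± 9.18 CPM in POMC libraries (2.41 ± 0.29, q = 2.74e-06). Srpr, a subunit of the receptor for the signal recognition particle, had one of 1.55 ± 0.22 and Rpn1, another subunit of the glycan-adding enzyme, one of 1.85 ± 0.27. With only the 1 μl POMC libraries the counts were 10 and 17, and under per-cell scaling 0 and 0, although the medians relative to all genes were then 0.90 and 0.97.

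The promoter of Hspa5 is shown because it holds an ER stress response element (ERSE), a sequence through which ER stress is known to induce chaperone genes. The 250 bases before its start, chr2:34771840-34772089 on the plus strand, read as follows, with an AP-1 motif and then the ERSE in capitals.
Hspa5: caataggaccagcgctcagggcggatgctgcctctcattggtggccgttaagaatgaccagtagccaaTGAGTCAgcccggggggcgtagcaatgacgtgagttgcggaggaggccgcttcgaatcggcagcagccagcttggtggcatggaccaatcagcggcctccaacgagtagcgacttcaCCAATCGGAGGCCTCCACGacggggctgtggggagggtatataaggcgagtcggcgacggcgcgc
The ERSE was searched on both strands and counted once per gene. Among genes with a promoter, it was present for 9 of 35 of the folding list (25.7%), none of 49 of the translocation list and 0.137% of all. It was present for 7 of the 511 such genes with a positive interaction and for none of the 298 with a negative one.

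Proteasome genes moved with the ER lists. Of 38 subunits 15 had an interaction (39.5%), all positive, with 11 that rose in AGRP neurons and none called in POMC neurons. Psmd12, of the regulatory particle, averaged 134 ± 14.0 and 240 ± 38.8 CPM in AGRP and 168 ± 30.9 and 135 ± 29.7 CPM in POMC libraries (1.15 ± 0.24, q = 0.00295). Psma2 and Psmb3, of the core particle, had interactions of 1.21 ± 0.28 and 2.04 ± 0.47. When POMC libraries were limited to the 1 μl set, 2 subunits were called and under per-cell scaling none. Psma2 (1.00, q = 0.0606) and Psmb3 (1.25, q = 0.153) were not called in the 1 μl set.

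Ribosomal protein and oxidative phosphorylation genes had positive medians but few calls. Of 79 cytosolic ribosomal protein genes 1 had an interaction (1.27%), Rplp0 at 1.51 ± 0.40 (q = 0.019), and of 74 oxidative phosphorylation subunits 4 (5.41%), among them Ndufb9 at 0.97 ± 0.27, Ndufa5 at 1.89 ± 0.54 and Atp5g3 at 1.09 ± 0.31. The median interaction was 0.59 and 0.76, of which the POMC change gave -0.59 and -0.61 and the AGRP change 0.01 and 0.15. With only the 1 μl POMC libraries the medians were -0.11 and 0.25 and no member was called.

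Exon length moved with these medians. When the genes expressed in both cell types were split into 5 equal groups by summed exon length, the median interaction was 0.35, 0.19, 0.05, -0.02 and -0.04 from the shortest to the longest group. The median POMC change went from -0.21 to 0.09 and the median AGRP change from 0.16 to 0.06. The shortest group held 143 positive and 25 negative interaction genes and the longest 84 and 88. Ribosomal protein and oxidative phosphorylation genes had median exon lengths of 1770 and 1737 bases and proteasome genes 2886, against 4148 over all genes tested, while the 2 ER lists stood at 3494 (folding) and 4254 bases (translocation). The part of exon length in the list results was not tested.

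**Figure D4:**
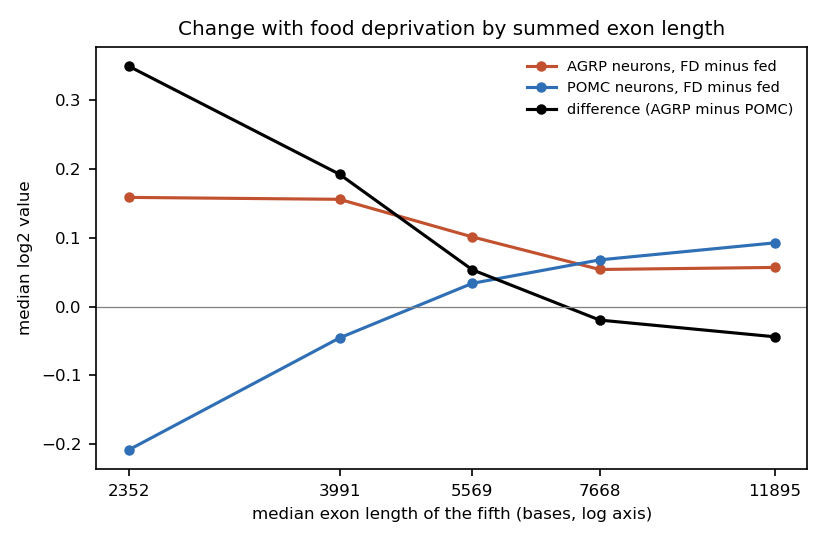
Median log2 value (y axis) of the AGRP change, the POMC change and the interaction against the median summed exon length in bases (x axis, log scale) of 5 equal groups of genes expressed in both cell types. The interaction goes from 0.35 in the shortest to -0.04 in the longest group, and most of this slope lies in the POMC change, -0.21 to 0.09.

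Of 17 glucocorticoid-responsive genes 6 had an interaction (35.3%), 5 positive and 1 negative, with 10 that rose and 1 that fell in AGRP neurons and 2 that rose in POMC neurons. Cdkn1a, the cell cycle inhibitor p21, averaged 5.11 ± 8.02 and 420 ± 149 CPM in fed and FD AGRP libraries but 19.1 ± 8.42 and 14.6 ± 7.59 CPM in POMC libraries (6.76 ± 0.85, q = 4.44e-06). The fed AGRP mean rests on replicate 5 at 19.4 CPM, and the other 4 libraries averaged 1.53 ± 0.53 CPM. Mt2, a metallothionein, had an interaction of 5.92 ± 0.91 (q = 1.06e-04), but 73.5% of its exon length is shared with the antisense gene Gm45774, and Mt1 had one of 5.94 ± 1.05 (q = 5.05e-04). The 2 that rose in POMC neurons were Fam107a and, named with its values seen, Zbtb16, whose interaction of -0.76 was not called (q = 0.418).

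The promoter of Fam107a, the gene that rose in both cell types, holds a glucocorticoid response element (GRE) at 118 to 106 bases before the start of a RefSeq transcript. The 250 bases before that start, chr14:8309780-8310029 on the minus strand, lie inside the span that the count table gives the gene, and the element is in capitals.
Fam107a: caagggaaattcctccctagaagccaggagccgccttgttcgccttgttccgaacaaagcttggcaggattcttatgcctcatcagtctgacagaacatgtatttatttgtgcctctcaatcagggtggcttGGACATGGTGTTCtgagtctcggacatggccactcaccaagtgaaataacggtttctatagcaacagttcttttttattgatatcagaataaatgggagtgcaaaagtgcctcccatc
The GRE, searched on both strands, was present for 20% of the 15 genes of the glucocorticoid list with a promoter, against 0.537% of all genes with a promoter.

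Of 20 genes of the NRF2 antioxidant response and the metallothioneins, 7 had an interaction (35.0%), all positive, and none was called in POMC neurons. Srxn1, sulfiredoxin, rose in AGRP neurons from 32.7, 34.2, 39.1, 45.0 and 45.2 CPM to 154 to 1189 CPM (median 852), with all 6 FD libraries above the fed ones. POMC libraries held 38.3, 62.6, 80.6, 95.4 and 107 CPM when fed and 32.8, 40.1, 48.5, 55.5 and 65.1 CPM after food deprivation, and the interaction was 4.93 ± 0.48 (q = 4.94e-08). Its promoter, chr2:152105274-152105523 on the plus strand, is shown because it holds 2 AP-1 motifs, a core also found within many antioxidant response elements, at 102 to 96 and 45 to 39 bases before the start.
Srxn1: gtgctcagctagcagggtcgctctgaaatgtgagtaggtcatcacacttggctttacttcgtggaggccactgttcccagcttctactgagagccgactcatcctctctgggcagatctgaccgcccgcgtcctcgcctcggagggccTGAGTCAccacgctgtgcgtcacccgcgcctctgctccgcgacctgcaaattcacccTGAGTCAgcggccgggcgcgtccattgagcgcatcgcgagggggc
The AP-1 motif was searched as TGACTCA on both strands and counted once per gene. Among genes with a promoter, it was present for 25.0% of the 16 of this list and for 5.95% of all. It was present for 6.07% of such genes with a positive interaction, 4.70% with a negative one and 4.45% of those tested. For the GRE these shares were 0.783%, 1.01% and 0.431%. For the E-box CACGTG, a motif through which clock factors act, they were 9.78%, 10.7% and 11.3%.

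Of 28 genes of leptin and insulin signalling 4 had an interaction (14.3%), 3 positive, and the list's median was -0.01. Lepr, Stat3 and Irs4 led it and are described above. Cholesterol synthesis had 1 interaction in 24 genes (4.17%), Cyp51 at 1.97 ± 0.36 (q = 6.76e-04), and Msmo1 stood at 0.94 ± 0.36 (q = 0.117).

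Channels and synaptic genes had interactions in both directions. Potassium channel subunits had 7 in 72 (9.72%), 4 positive and 3 negative. Kcnq3, a subunit of the M-current channel, averaged 291 ± 108 and 140 ± 140 CPM in AGRP and 157 ± 24.2 and 454 ± 142 CPM in POMC libraries, an interaction of -2.58 ± 0.51 (q = 0.00152). In FD AGRP neurons replicate 2 stood at 425 CPM and the other 5 libraries averaged 83.5 ± 19.4 CPM, and without that replicate the interaction was -3.33 (q = 6.88e-08). The POMC change, 1.53 ± 0.37, fell just short of the threshold (q = 0.0556) with no overlap between groups. Kcnc2 and Kcnh1 had positive interactions of 1.20 ± 0.27 and 2.67 ± 0.65.

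Sodium, calcium, HCN and TRPC channel subunits had 8 in 45 (17.8%), 4 in each direction. Nalcn, the sodium leak channel, had an interaction of -1.10 ± 0.21 (q = 0.00104), Cacna1i, a T-type calcium channel, one of -2.57 ± 0.59, and Cacnb4 one of -1.47 ± 0.25, with 16.0% of its exon length shared with an antisense gene. Glutamate receptor subunits had 4 in 17 (23.5%), with Grin2b at -1.18 ± 0.19 (q = 1.59e-04), Gria3 at 1.34 ± 0.35 and Grik2 at -1.07 ± 0.31. Grin2b fell in AGRP neurons from 660 ± 91.5 to 328 ± 62.5 CPM, and stood at 793 ± 91.6 and 894 ± 39.0 CPM in POMC neurons. Of 16 GABA-A receptor subunits 1 had an interaction (6.25%), Gabra3 at -1.47 ± 0.30 (q = 0.00202), and Gabra2 came next at 1.26 ± 0.45 (q = 0.0907).

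Of 53 genes of vesicle filling and release 14 had an interaction (26.4%), 10 positive and 4 negative. Sv2c averaged 119 ± 46.9 and 638 ± 220 CPM in fed and FD AGRP libraries and 134 ± 21.6 and 87.6 ± 11.8 CPM in POMC libraries. Rab3b, a vesicle GTPase, had an interaction of 1.83 ± 0.26 (q = 4.77e-05) and Syt5, a calcium sensor, one of 1.53 ± 0.24 (q = 1.15e-04). Of 19 arcuate transcription factors 2 had an interaction (10.5%), Zfhx2 and Bsx. Bsx, which AGRP neurons require for Npy and Agrp expression, was at 36.2 ± 11.1 and 33.6 ± 8.64 CPM there and at 0.515 ± 0.612 and 4.59 ± 4.68 CPM in POMC neurons (-3.20 ± 0.94, q = 0.0354). The Bsx call thus rests on low POMC reads. It was lost in 12 other settings, 9 of which left out 1 library, and limma-voom was among the 12 (q = 0.132). Dlx1, next by q, had 0 counts in every fed POMC library and was not called (q = 0.0976).

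**Figure D5:**
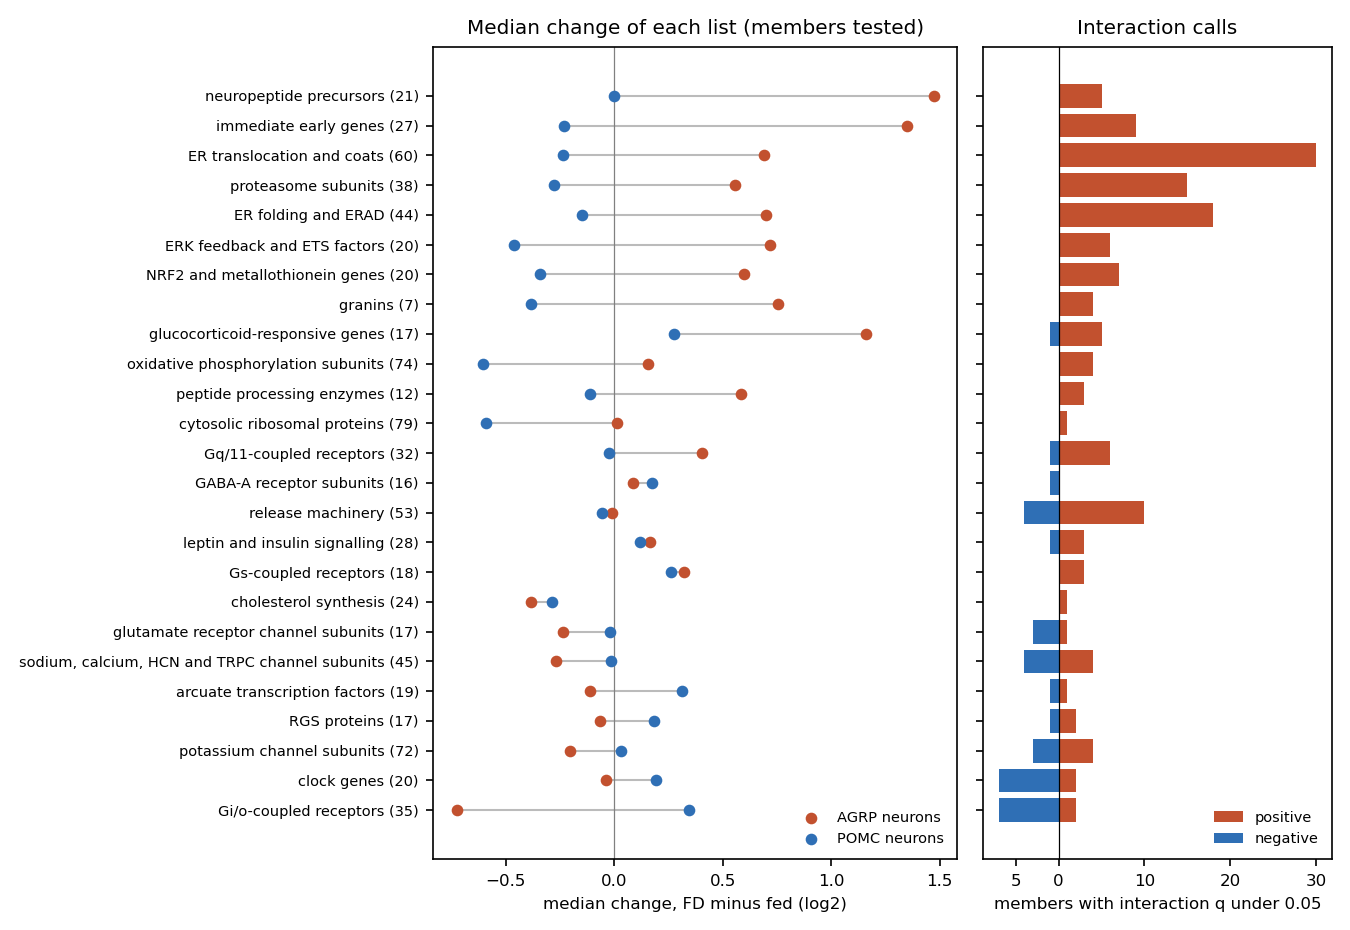
Left, median change (FD minus fed, log2, x axis) of the tested members of each of 25 gene lists in AGRP and POMC neurons. Right, number of members with an interaction at q under 0.05, positive to the right and negative to the left, led by 30 positive calls among 60 ER translocation and coat genes and with 7 negative calls each in the Gi/o receptor and clock lists.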

How the data were processed

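RNA-Seq was measured in 21 libraries of hand-sorted AGRP or POMC neurons, grouped by the titles that the submitters gave them. Per the study's methods and the submitters' processing notes, the authors trimmed reads with cutadapt 1.7.1, removed abundant sequences with Bowtie2 2.1.0, aligned the rest to mm10 with STAR 2.4.0i, and counted reads per gene with HTSeq 0.6.1p1 without use of strand, which gave the deposited counts. The deposited TPM values were also made by the authors and scale each gene to transcript length. They were used here only for marker levels. RNA had been amplified and carries no molecular identifiers, so the floor covers counting error only.

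Rows that name no gene and the 92 spike-in entries were left out of library totals. The unassigned row, reads in no annotated feature, equalled 25.6% to 55.3% of reads and overlapped among groups. Counts were scaled by TMM and fitted with edgeR 4.0.16 (quasi-likelihood test, R 4.3.3) in 1 model with 4 groups and no covariate. The study's methods use limma-voom, which was run as an alternative (limma 3.58.1), as was DESeq2 1.42.0. Every contrast was adjusted by Benjamini-Hochberg over the 16513 genes tested (q), and a standard error is the absolute log2 difference divided by the square root of the F statistic. CPM values are TMM-scaled. Each library is 1 mouse, and p-values measure the spread between mice. A count of 3 per library was the floor, 0.0911 to 0.294 CPM. Scripts were tested on simulated counts.

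Genes were named by rule: up to 15 reversed genes by their largest q; the 8 highest and 8 lowest interactions among genes that met the size criteria and were expressed in both cell types; the 6 smallest interaction q among genes called in POMC neurons alone and in AGRP neurons alone; genes called in both the same way; the 3 smallest q in each of 25 lists; and Agrp, Npy, Pomc, Cartpt, Hrh3, Prokr2 and Fos. Some genes that the rule names are not reported here. The comparison, the lists and the rule were chosen with earlier results of these data known, and counts over them are not independent support. Promoters came from RefSeq, and exon lengths and overlaps from GENCODE M21 on the same assembly, whereas the counts used an earlier GENCODE release. Summed exon lengths were found for 98.9% of the genes expressed in both cell types.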

Additional observations from a re-analysis of the deposited data

Results flagged for a closer look

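Of the 101 genes named by the rule, 91 had different effects of food deprivation in the 2 cell types by the interaction test. Those named as reversed are Vgf (6.86), Spred3 (4.42), Etv5 (3.91), Prokr2 (3.18), Zfhx2 (2.74), Spred2 (2.59), Chga (2.07), Tubb3 (1.80), Unc13a (1.80) and Elovl5 (1.57) in the positive direction. In the negative direction they are Hrh3 (-5.67), Nr1d2 (-2.35), Rps6ka5 (-2.20), Dtna (-1.73) and Arhgap20 (-1.63). Values are interactions on the log2 scale.

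Genes called in AGRP neurons alone with a positive value and a role in secretion were Tac1 (7.01), Pdyn (2.74), Scg2 (2.65), Nmb (2.62), Pcsk1 (1.58), Cpe (1.32), Pam (1.04), Sv2c (3.03), Rab3b (1.83) and Syt5 (1.53). Receptors, channels and G protein regulators in this direction were Nmur2 (5.48), Hcrtr2 (4.77), Gpr3 (4.50), Ghsr (3.50), Gpr64 (3.22), Lepr (3.09), Kcnh1 (2.67), Gria3 (1.34), Kcnc2 (1.20), Rgs4 (2.10) and Rgs20 (2.10). Stress and activity genes were Cdkn1a (6.76), Mt1 (5.94), Mt2 (5.92), Fosl2 (5.75), Spry4 (5.60), Srxn1 (4.93), Crem (3.36), Fos (1.60) and Egr1 (1.54). Genes of the ER, the proteasome and sterol synthesis were Stt3b (2.41), Hspa5 (2.02), Hyou1 (1.91), Rpn1 (1.85), Calr (1.74), Srpr (1.55), Psma2 (1.21), Psmd12 (1.15) and Cyp51 (1.97). The others were Sorcs1 (4.22), Ostf1 (4.11), Ntng1 (3.65) and Gm27031 (2.77).

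Among genes called in AGRP neurons alone with a negative value, transcription factors and clock genes were Bhlhe40 (-5.89), Per3 (-4.37), Lmo3 (-3.82), Bhlhe41 (-3.45), Hlf (-3.33) and Tef (-2.68). Receptors, channels and the rest were Rgs6 (-8.61), Htr1a (-4.47), Fat3 (-3.43), Kcnq3 (-2.58), Cacna1i (-2.57), Npy2r (-2.20), Cacnb4 (-1.47), Gabra3 (-1.47), Grin2b (-1.18), Nalcn (-1.10) and Grik2 (-1.07). In POMC neurons alone the called genes were Asb4 (2.42), Cartpt (2.10), Stat3 (1.80), Tspan13 (1.54), Irs4 (0.79), Slc9a2 (-6.90), Fam43a (-3.56) and Sorcs3 (-1.57). Fam107a (-1.60) was called in both the same way, and neither change was called for Pth2r (5.23), Psmb3 (2.04), Ndufa5 (1.89), Rplp0 (1.51), Atp5g3 (1.09), Ndufb9 (0.97) and Bsx (-3.20). The fitted values of Tac1, Rgs6 and Slc9a2 depend on the prior count, since 1 group lay at the floor.

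Of 176 groups of libraries looked at for 44 named genes, 12 held 1 library far from the others, and chance gives about 1 in 20. Values are in CPM. In fed AGRP neurons these were Dtna (replicate 3, 531 against 426 to 439), Prokr2 (replicate 5, 61.9 against 24.8 to 33.1) and Spry4 (replicate 5, 22.4 against 0.521 to 5.76). In FD AGRP neurons they were Per3 (replicate 6, 18.6 against 4.35 to 8.11), Nmur2 (replicate 2, 60.7 against 7.43 to 24.7) and Fos (replicate 4, 388 against 135 to 212). In fed POMC neurons they were Arhgap20 (replicate 2, 81.5 against 127 to 132), Irs4 (replicate 3, 1732 against 1895 to 1942), Agrp (replicate 5, 9.44 against 1.52 to 3.04) and Slc9a2 (replicate 3, 0.118 against 0). In FD POMC neurons they were Bhlhe41 (replicate 1, 96.7 against 43.6 to 54.1) and Spry4 (replicate 1, 1.06 against 5.41 to 6.38).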

How the results depend on the processing

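Under per-cell spike-in scaling, which takes all volumes to be of 1 stock, there were 119 interaction genes, 48 by the size criteria and 0 reversed, and Grik2 turned to 0.36 (q = 0.886). The raw list medians of clock genes, potassium channels and RGS proteins turned positive there (0.59, 0.81 and 0.97), with the median of all genes at 1.04. With only the 1 μl POMC libraries (3 against 3) the counts were 622, 486 and 9. Reversed genes numbered 75 by DESeq2, 49 with a stricter count filter and 56 at q under 0.1, and 259 genes passed the size criteria at a log2 threshold of 2. Leaving out 1 library gave 870 to 1313 interaction genes, 633 to 897 by the size criteria and 13 to 39 reversed, with 13 without POMC fed replicate 2, 14 without POMC FD replicate 3 and 39 without POMC fed replicate 3. The cause of these shifts was not tested. Of the 91 called named genes 16 kept the call in all 33 settings and Slc9a2 and Mt1 in all but the stricter filter, which they do not pass, and 70 lost it under per-cell scaling, 14 with only the 1 μl POMC libraries and 11 by limma-voom. The 11 were Ghsr, Pth2r, Nmb, Tac1, Ndufa5, Atp5g3, Mt2, Kcnh1, Rgs20, Bsx and Cartpt.

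Replicate numbers did not pair the samples. In 2 of 30 same-numbered pairs the correlation of deviations was over 0.1 (range -0.164 to 0.109), and 1 of 21 samples correlated best with its own number. With the replicate block there were 927 interaction genes, 706 by the size criteria and 20 reversed.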

Other observations

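For 255 of the interaction genes neither cell type's own change passed the test, and in 254 of them the 2 estimates had opposite signs. The selection largely fixes this, since a called difference between 2 uncalled changes mostly needs opposite signs. The median change was 0.35 in AGRP and -0.52 in POMC neurons, with 142 positive and 113 negative interactions. Examples, chosen with their values seen, are Nedd4l, a ubiquitin ligase for membrane channels, Pik3ip1, an inhibitor of PI3 kinase, and Rnd3, an atypical small GTPase. Nedd4l averaged 215 ± 27.2 (SD, n = 5) and 151 ± 23.1 CPM (n = 6) in fed and FD AGRP libraries and 127 ± 43.4 and 204 ± 27.1 CPM in POMC libraries (n = 5 each), an interaction of -1.20 ± 0.26 (SE, q = 0.00368). Pik3ip1 averaged 28.7 ± 8.02 and 14.3 ± 4.95 CPM in AGRP and 7.68 ± 4.26 and 23.3 ± 12.9 CPM in POMC libraries (-2.61 ± 0.59, q = 0.00555). Rnd3 averaged 138 ± 34.1 and 211 ± 47.96 CPM in AGRP and 91.8 ± 24.8 and 40.3 ± 21.2 CPM in POMC libraries (1.79 ± 0.39, q = 0.00423).

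Among the 24 genes called in POMC neurons alone were several signalling genes outside the naming rule, also chosen with their values seen. Oprk1, the kappa opioid receptor on which dynorphin acts, rose in POMC neurons from 16.7 ± 9.72 to 116 ± 44.7 CPM and averaged 12.5 ± 9.47 and 13.3 ± 9.71 CPM in AGRP neurons (interaction -2.71 ± 0.65, q = 0.01). Adcy6, an adenylyl cyclase, rose from 54.9 ± 12.9 to 114 ± 13.1 CPM, and Rxra, a nuclear receptor partner, from 12.1 ± 3.06 to 42.0 ± 17.3 CPM. Ptpn5, a neuronal phosphatase that acts on ERK, fell from 167 ± 35.1 to 65.6 ± 2.96 CPM, and Syt4, a synaptotagmin of dense-core vesicles, from 1223 ± 239 to 757 ± 67.8 CPM. The AGRP change of each of these 5 genes had a q above 0.1.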
